A study of Mus musculus with 12 samples.

Results

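The insulin-like growth factor (IGF) genes described here are 1 ligand gene (Igf1), 7 binding protein genes (Igfbp1 to Igfbp7) and 1 protease gene (Pappa), 9 of the 21729 genes in the table of read counts. They were taken as a fixed list of gene symbols and read in all 12 cells. The cells were cultured cardiac progenitor cells (CPCs), sorted as c-Kit+ and lineage-negative from hearts of FVB mice that were 12 weeks old and reported as female. They were grown on gelatin to passage 5 in medium holding 10% serum, LIF and bFGF at 10 ng/ml each, EGF at 20 ng/ml, and a supplement of insulin, transferrin and selenium at 1%, so every cell measured here was grown with insulin and serum. Hearts were pooled for each preparation, and the labels name neither a culture nor an animal for a cell. The 12 cells therefore form 1 group that counts as 1 sample. No other condition was analysed here, so each spread below describes these cells and no test was made.

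The total per cell was 3453708 (cell 1) to 5690184 counts (cell 12). Levels are in CPM, counts per 1000000 counts of the cell. A count of 0 allows a level of up to 3 counts (a one-sided limit at level 0.95, below the upper end of the 2-sided Poisson intervals given for other counts), which is 0.869 CPM at the lowest depth and 0.527 CPM at the highest. Kit, the gene behind the sort, had 21 counts in cell 10 and none in the other 11 cells. The fibroblast list had 5 of 10 genes counted in all cells, against 35.3% of all genes, with a median sum of 1497 CPM. Its other 5 genes (Tcf21, Dcn, Lum, Postn and Dpt) were counted in 1 to 3 cells each. The endothelial list had a median sum of 12.9 CPM. Some cells stood apart from the rest. Cell 10 held 8 of 10 endothelial genes at a sum of 9810 CPM, against at most 58.5 CPM elsewhere, and the lowest fibroblast sum (218 CPM). Cell 3 had a haematopoietic sum of 1623 CPM, against at most 75.6 CPM elsewhere, of which Cd53 made 1463 CPM. All 5 of the 10 haematopoietic genes counted in cell 3 had their highest level there, with Cd68 at 69.1, Csf1r at 59.1, Lyz2 at 30.3 and Adgre1 at 1.58 CPM, while the other cells held 2 to 6 of the genes. Ptprc was at 0 in cell 3, as in 9 other cells, and Itgam in all cells. Cell 11 held 4 of 10 mural (smooth muscle and pericyte) genes at a sum of 3791 CPM, against at most 208 CPM elsewhere. Acta2, a smooth muscle actin gene, made 3668 CPM of it. Tagln was also highest there (11.2 CPM), while Pdgfrb (57.6 CPM) and Mcam (53.8 CPM) were higher in other cells. Cnn1, Rgs5, Cspg4, Kcnj8 and Abcc9 were at 0 in cell 11. Myh11 was at 0 in that cell and in 10 others. The number of genes with a count was 10022 to 10181 in cells 7, 8, 10, 11 and 12 and 11216 to 11950 in the other 7 cells. The summed level of Y-linked genes was lowest in cell 3, at 9.76 CPM, and the remaining 11 cells ranged from 63.7 to 267 CPM, although the mice were reported as female.

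IGF1 and IGF2 are secreted hormones that act through the receptor IGF1R to promote growth and survival of cells. In tissue fluid most IGF is held by the binding proteins IGFBP1 to IGFBP6, which bind it tightly and can block or prolong its action. IGFBP7 binds IGF only weakly and is deposited in matrix and around vessels. PAPP-A, the product of Pappa, is a metalloprotease that cuts IGFBP4 and IGFBP5 and so frees IGF, and the stanniocalcins inhibit it. In the heart, IGF signalling is known for its role in the growth and survival of cardiomyocytes.

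Of the 9 genes, Igfbp7 alone was counted in all 12 cells. Igf1, Igfbp3, Igfbp4, Igfbp6 and Pappa were counted in some of them, and Igfbp1, Igfbp2 and Igfbp5 had no counts in any. Over the whole table, 35.3% of genes were counted in every cell, 31.2% in some and 33.4% in none. A cell held counts of 3 to 6 of the 9 genes, and these numbers were the same in all cells after counts were thinned to 3453708 per cell. Libraries carry no molecular identifiers, so the limits and intervals given here cover counting error only.

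**Figure D1:**
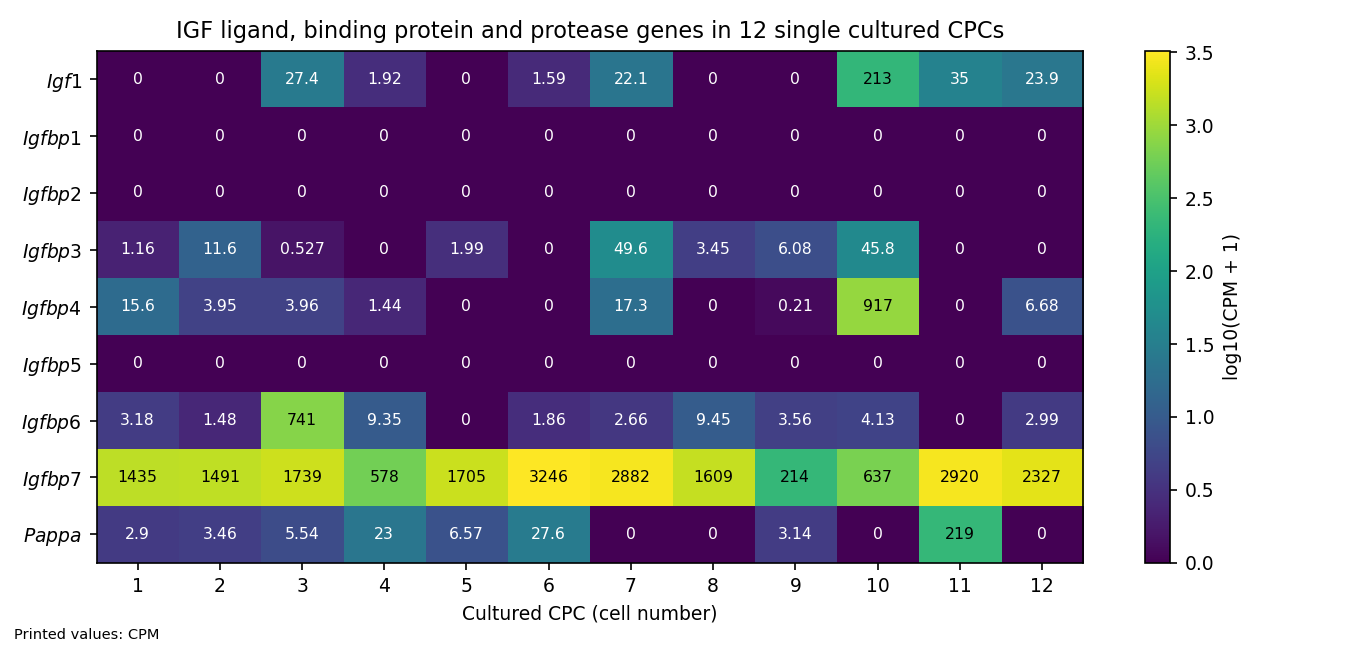
CPM of the 9 genes (rows) in cells 1 to 12 (columns), coloured by log10(CPM + 1) with the CPM printed in each box. Igfbp7 fills its row, 3 rows are at 0, and Igfbp4, Igfbp6 and Pappa each have 1 cell far above the rest, at 917, 741 and 219 CPM.

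Igfbp7 was the dominant transcript of the set. Its level in cells 1 to 12 was 1435, 1491, 1739, 578, 1705, 3246, 2882, 1609, 214, 637, 2920 and 2327 CPM. Cell 9 was lowest and cell 6 highest, and cells 4, 9 and 10 lay apart below the other 9 cells, none of which was under 1435 CPM. The mean was 1732 ± 971 CPM (SD, 12 cells) and the median 1657 CPM. Per kilobase of merged exons its median was 1370 CPM per kb, which placed it at rank 16 of 21355 genes with a gene model. Igfbp7 lies on chromosome 5 (77349240 to 77408041, minus strand, mm10). At its 3′ end, 85 exonic bases of Igfbp7 are also exonic in Polr2b on the other strand, and reads there could be assigned to either gene, since the strand rule of the counting is not stated.

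Igfbp6, which prefers IGF2 over IGF1, was counted in 10 cells (chromosome 15, 102144362 to 102149511). Cell 3 had 2811 counts, or 741 CPM. The other 9 cells with counts had 6 to 52 counts, or 1.48 to 9.45 CPM, and cells 5 and 11 had none. Cell 3 thus carried 95.0% of the summed CPM, and without it the mean was 3.52 ± 3.20 CPM (SD, 11 cells) in place of 65.0 ± 213 CPM. Cell 3 was also the cell with the highest haematopoietic sum. Of the fibroblast list it had the highest levels of Dcn (223 CPM) and Pdgfra (276 CPM). Its Col1a1 and Col1a2 levels were 12.9 and 22.1 CPM, against medians of 167 and 690 CPM over the cells. Its fibroblast sum was 859 CPM, against a median of 1497 CPM. The part of these in the Igfbp6 level was not tested.

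Igfbp4 followed the same form in another cell (chromosome 11, 99041244 to 99054392). In cell 10 it had 4883 counts (917 CPM). Cells 7, 1, 12, 3, 2, 4 and 9 had 17.3, 15.6, 6.68, 3.96, 3.95, 1.44 and 0.210 CPM, the last being a single count (exact 95% Poisson interval 0.0253 to 5.57 counts). Cells 5, 6, 8 and 11 had no counts. Cell 10 carried 94.9% of the summed CPM, so that the mean fell from 80.5 ± 263 CPM to 4.47 ± 6.34 CPM (SD, 11 cells) when it was left out. The median over all cells was 2.69 CPM, and it ran from 1.44 CPM (without cell 1, 2, 3, 7, 10 or 12) to 3.95 CPM when single cells were left out. Cell 10 was the cell with endothelial transcripts, whose part in this value was not tested.

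Igfbp3, the main carrier of IGF in blood, was counted in 8 cells (chromosome 11, 7206086 to 7213923). It had its highest values in cells 7 and 10, at 49.6 and 45.8 CPM, whose 95% Poisson intervals overlapped (43.8 to 56.0 and 40.2 to 51.9 CPM). Cell 2 followed at 11.6 CPM and cell 9 at 6.08 CPM. Cells 1, 3, 5 and 8 had 2 to 19 counts, and cells 4, 6, 11 and 12 had none. Igfbp3 was the only gene of the 5 with partial detection in which no single cell held over 50% of the summed CPM.

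The ligand gene Igf1 was counted in 7 cells (chromosome 10, 87858265 to 87937042). Cell 10 was highest at 1135 counts, or 213 CPM. Cells 11, 3, 12 and 7 had 35.0, 27.4, 23.9 and 22.1 CPM, and cells 4 and 6 had 8 and 6 counts, or 1.92 and 1.59 CPM. Cells 1, 2, 5, 8 and 9 had no counts. The values therefore fell into 3 levels, with 1 cell over 200 CPM, 4 cells between 22.1 and 35.0 CPM and 2 cells under 2 CPM. Cell 10 held 65.6% of the sum, and the mean was 27.1 ± 60.0 CPM with it and 10.2 ± 13.8 CPM (SD, 11 cells) without it. An antisense gene, Igf1os, overlaps the locus but shares no exonic bases with Igf1.

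Pappa was counted in 8 cells (chromosome 4, 65124174 to 65357509). Cell 11 had 1216 counts, or 219 CPM, and cells 6 and 4 had 27.6 and 23.0 CPM. Cells 5, 3, 2, 9 and 1 lay between 2.90 and 6.57 CPM. Cells 7, 8, 10 and 12 had no counts. Each was read to at least 5258541 counts, but they were also the 4 cells with the fewest genes counted, and Pappa had a rho of 0.58 with the number of genes counted. The part of this in the Pappa values was not tested. Cell 11 held 75.2% of the summed CPM. It was also the cell with the high Acta2 level, and the part of that in the Pappa value was not tested. Without cell 11 the mean was 6.57 ± 9.60 CPM (SD, 11 cells), against 24.3 ± 62.1 CPM with it.

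The genes without counts form neighbouring pairs with other genes of the family. Igfbp2 and Igfbp5 lie 5457 bases apart on chromosome 1, pointing towards each other, and both were listed at 0 in all 12 cells. The counting program is not stated, so a counting rule that left these genes without reads could not be checked, and a 0 here is the listed value. Igfbp1 and Igfbp3 lie 3539 bases apart on chromosome 11, also pointing towards each other, and there Igfbp1 was at 0 while Igfbp3 had 616 counts over the cells. Of the nearest protein-coding genes outside the first pair, Rpl37a was counted in 12 cells (median 481 CPM) and Tnp1, a gene of sperm chromatin, in none. The next gene beyond Tnp1 was Tns1, counted in 12 cells at a median of 130 CPM, and the next beyond Rpl37a was Ankar, with no counts.

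Start-site sequences are shown for the most abundant gene and for a gene with no count, to give the contrast between Igfbp7 and Igfbp5 its genomic context. Each window spans 300 bases around the annotated RefSeq start (GRCm38.p6, which is the build mm10), 5′ to 3′ on the strand of the gene, with capitals marking every CG dinucleotide. Igfbp7 is at chr5:77407996-77408295 and Igfbp5 at chr1:72874816-72875115, both on the minus strand.
Igfbp7: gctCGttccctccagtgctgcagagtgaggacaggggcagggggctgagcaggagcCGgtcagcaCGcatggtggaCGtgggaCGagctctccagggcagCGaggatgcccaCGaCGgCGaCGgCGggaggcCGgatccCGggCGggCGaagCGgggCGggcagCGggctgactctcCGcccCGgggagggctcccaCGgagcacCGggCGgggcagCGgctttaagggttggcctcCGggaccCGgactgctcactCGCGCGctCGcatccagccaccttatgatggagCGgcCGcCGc
Igfbp5: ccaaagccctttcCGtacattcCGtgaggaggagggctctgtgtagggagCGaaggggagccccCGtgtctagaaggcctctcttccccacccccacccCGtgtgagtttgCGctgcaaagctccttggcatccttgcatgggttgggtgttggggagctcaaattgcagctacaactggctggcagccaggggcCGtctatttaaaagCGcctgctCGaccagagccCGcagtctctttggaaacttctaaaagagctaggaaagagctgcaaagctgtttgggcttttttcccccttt

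The Igfbp7 window held 33 CG dinucleotides, which was at percentile 91.9 of 32851 such windows, and the Igfbp5 window held 10, at percentile 57.6. The median window held 7, and 94.6% of windows held at least 1. Windows were found for 8 of the 9 genes. Among the other members, Igfbp3 had 37, Igfbp4 had 27, Igf1 had 6, Igfbp6 and the uncounted Igfbp1 had 8 each, and the 2 start windows of the uncounted Igfbp2 had 18 and 14. Neither methylation nor binding of factors was measured.

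Levels of different genes were compared per kilobase of merged exons. By their medians over cells the order was Igfbp7 at 1370, Igfbp6 at 2.78, Igfbp4 at 0.610, Igfbp3 at 0.503, Pappa at 0.299 and Igf1 at 0.177 CPM per kb, followed by the 3 genes at 0. Igfbp7 exceeded Igfbp6 in 12 of 12 cells, by 8.64 ± 3.64 on the scale of log2(CPM per kb + 0.1) (mean and SD over cells). No later neighbours in the order differed beyond their spread. Igfbp6 exceeded Igfbp4 in 7 cells and was below it in 3, by 1.94 ± 3.99, and Igfbp4 and Igfbp3 were each the higher one in 5 cells. Leaving out any one of cells 1, 2, 3, 7, 10 and 12 put Igfbp3 ahead of Igfbp4, as the median of Igfbp4 then was 0.326 CPM per kb. With cells 3 and 10 both left out, Igfbp4 came after Pappa too. When ordered by means, which follow the highest cells, Igf1 moved ahead of Pappa.

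**Figure D2:**
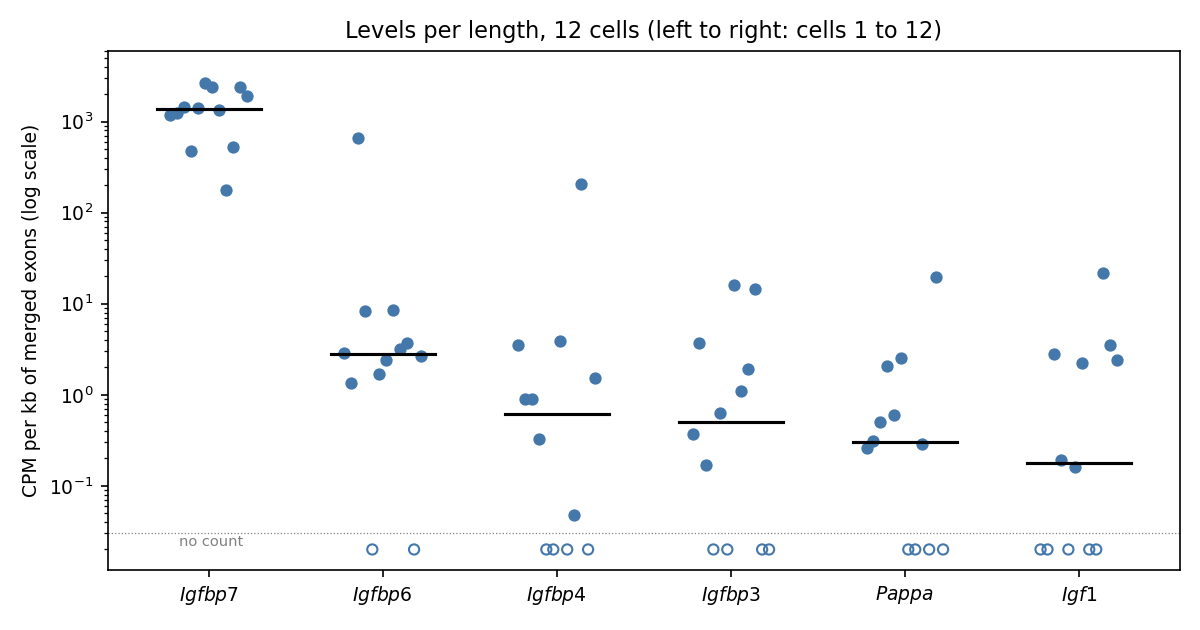
Levels per kb of merged exons on a log scale for the 6 genes with counts, 1 point per cell with cells 1 to 12 from left to right; open circles below the dotted line are cells with no count and bars are medians. Igfbp7 lies above every other gene in each cell, and the other 5 genes overlap.

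The composition of binding protein transcripts followed from these levels. The sum over Igfbp1 to Igfbp7 ran from 182 CPM per kb in cell 9 to 2686 CPM per kb in cell 6, with a mean of 1512 ± 805 CPM per kb (SD, 12 cells). Igfbp7 was the largest component in every cell, with a median share of 99.4%. The share was 68.3% in cell 3 and 70.0% in cell 10 and lay between 97.1 and 100% in the other 10 cells. In cell 3 the remainder was Igfbp6 at 31.6%, and in cell 10 it was mainly Igfbp4 at 27.6%. The level of Igfbp7 was 2.16 times that of the next binding protein in cell 3, 2.54 times in cell 10 and at least 55.2 times in the other 9 cells where another one was counted. In cell 11 no other binding protein had a count.

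**Figure D3:**
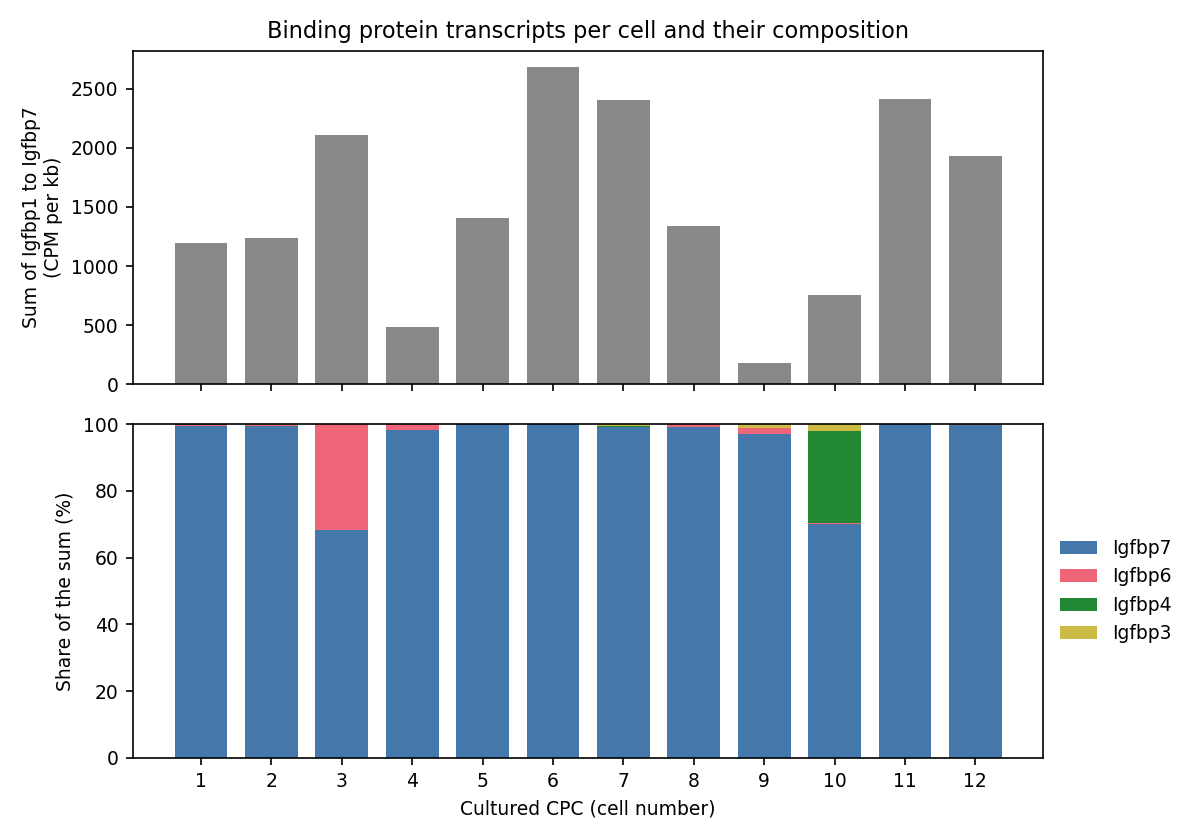
Upper bars give the sum of Igfbp1 to Igfbp7 per cell in CPM per kb, and lower bars the share of each gene in that sum in percent. Cells 3 and 10 are the ones with a sizeable second component, Igfbp6 at 31.6% and Igfbp4 at 27.6%.

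How unevenly a gene is spread over cells depends on its abundance, so the squared coefficient of variation was compared with that of genes of like mean (9701 genes of at least 5 CPM with counts in at least 3 cells). Residuals of log10 of that quantity were 1.73 for Igfbp4, 1.68 for Igfbp6, 1.21 for Pappa, 1.18 for Igf1, 0.65 for Igfbp3 and 0.31 for Igfbp7, where 0 is the running median. These were at percentiles 99.8, 99.8, 98.9, 98.8, 93.2 and 81.1 of all genes. In 4 of the 6 genes (Igfbp4, Igfbp6, Pappa and Igf1) 1 cell held over 50% of the summed CPM, a form that 2.67% of the 9701 genes showed. Igfbp4 and Igfbp6 met the limit of 5 CPM only through that same cell, so nothing is read from this number or from their percentiles. The values rested on those cells. Without cell 10 the residual of Igf1 was 0.45, without cell 11 that of Pappa was 0.40, and without their highest cell Igfbp4 and Igfbp6 fell below 5 CPM and gave no value.

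**Figure D4:**
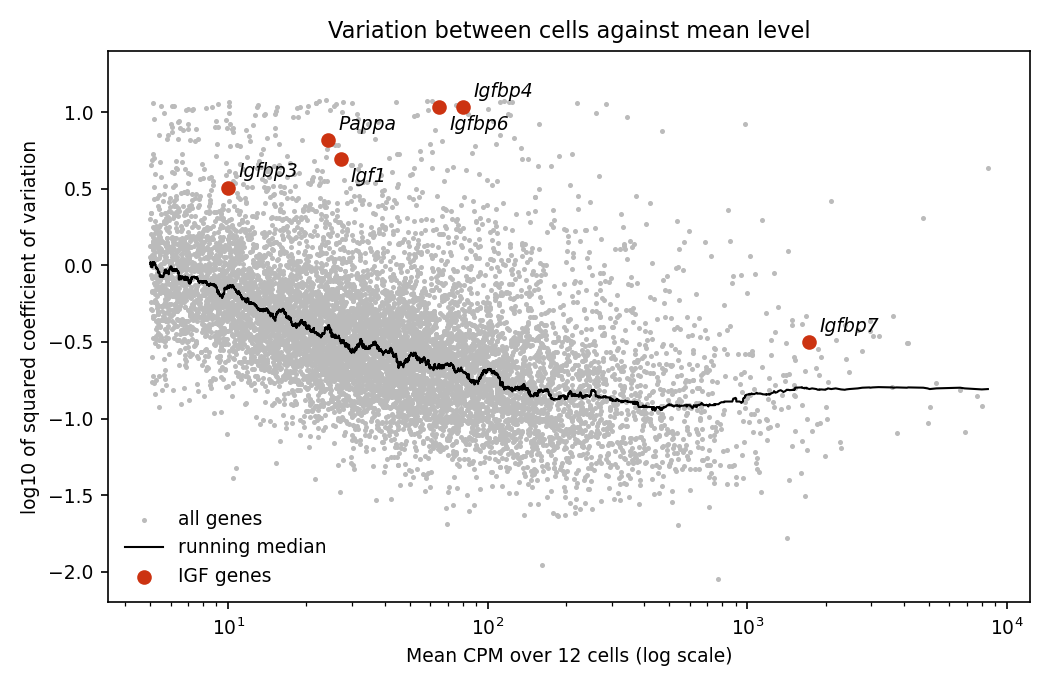
Each grey point is 1 of 9701 genes, with the mean CPM over 12 cells on a log axis and log10 of the squared coefficient of variation; the line is the running median and red points are the IGF genes. All 6 lie above the line, Igfbp4 and Igfbp6 farthest and Igfbp7 least. Igfbp4 and Igfbp6 met the limit of 5 CPM only through their highest cell, so nothing is read from their place.

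Igf1 was set against the cell cycle. The sum of 12 G2/M genes, such as Cdk1 and Top2a, was 1983, 1534, 4114, 3092 and 6341 CPM in cells 1, 2, 5, 8 and 9, which were the 5 cells without Igf1 counts. In cells 3, 4, 6, 7, 10, 11 and 12, which had Igf1 counts, it was 61.7, 508, 434, 96.2, 370, 34.5 and 269 CPM. The ranges did not overlap, but the share of all genes that separate the cells in this way was not computed. Spearman's rho between Igf1 and the G2/M sum was -0.88 over 12 cells, and 2 of 9641 genes, Igf1 included, had a rho as low or lower (0.0207%; the median gene was at 0.09). With the sum of 12 S phase genes rho was -0.76, and 0.415% of genes were as low or lower. There the ranges overlapped through cell 12, which had Igf1 counts and an S phase sum of 2833 CPM. Other sums moved with Igf1 too. Its rho was -0.65 with the sum of p53 target and arrest genes and 0.51 with the mural sum. It was -0.47 with the haematopoietic sum (-0.70 without cells 3 and 10) and 0.09 with the fibroblast sum (0.67 without them). The part of these sums in the relation was not tested. Igf1 had a rho of 0.40 with the total count (0.55 without cells 3 and 10) and of -0.46 with the number of genes counted. The part of depth in the relation was not tested beyond thinning to equal totals, where rho with the G2/M sum was -0.88. The cell cycle sums come from the same libraries as Igf1, and this relation was picked from 54 of the kind after the values had been seen, so it is a description.

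Igfbp7 took the same direction more weakly. Its rho with the G2/M sum was -0.62, and 2.72% of genes were as low or lower. Cell type sums moved with it too, with a rho of 0.65 for the fibroblast sum (0.65 without cells 3 and 10) and of -0.31 for the haematopoietic sum (-0.65 without them), and their part in its level was not tested. Cell 9, with the highest G2/M sum, had the lowest Igfbp7 level, but cells 4 and 10 combined low Igfbp7 levels of 578 and 637 CPM with G2/M sums of 508 and 370 CPM. For Igfbp3, Igfbp4, Igfbp6 and Pappa rho with the G2/M sum lay between -0.31 and 0.27.

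**Figure D5:**
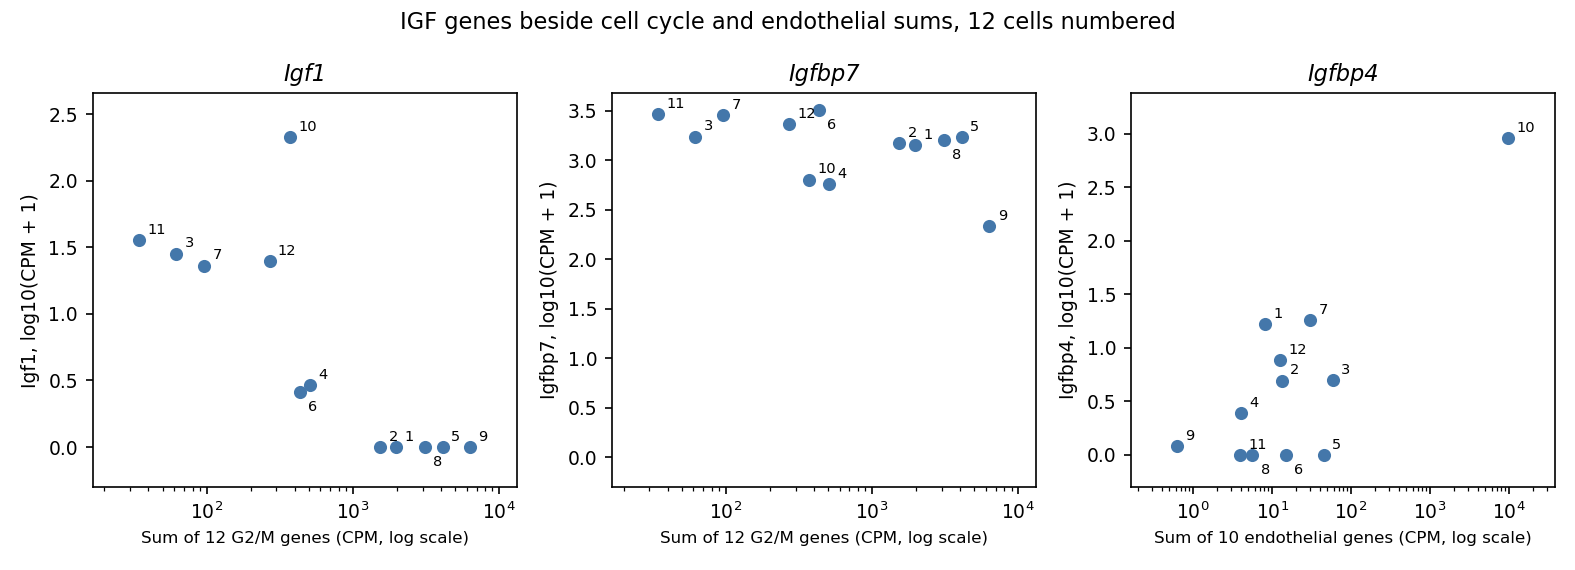
Points are the 12 numbered cells, with the gene level as log10(CPM + 1) against the sum of G2/M genes (left and middle) or of endothelial genes (right), both in CPM on log axes. Igf1 is at 0 in the 5 cells with G2/M sums of 1534 CPM or more, and cell 10 stands apart in the endothelial sum at 9810 CPM.

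Relations among the 6 counted genes were weak in most of the 15 pairs. The lowest rho was -0.64 between Pappa and Igfbp4, the protease gene and the gene of its substrate. Both were counted in 5 cells and neither in 1 (cell 8). Cells 7, 10 and 12 had Igfbp4 without Pappa, and cells 5, 6 and 11 had Pappa without Igfbp4. This was the most extreme of the 15 pairs with all cells in, Igfbp4 met the limit of 5 CPM on the mean only through cell 10, and the 3 cells with Igfbp4 alone were among the 4 with the fewest genes counted. Pappa and Igfbp3 had a rho of -0.61. The highest rho was 0.43, between Igfbp3 and Igfbp4. The order of the pairs changed without cells 3 and 10. The highest rho was then 0.59 between Igf1 and Igfbp7 (0.33 with all cells), and that of Igfbp3 and Igfbp4 was 0.33. The lowest was -0.60 between Igfbp6 and Igfbp7, with Igfbp4 and Pappa at -0.58. Igfbp4 and Igfbp6 met the limit of 5 CPM on the mean only through cells 10 and 3. Nothing is read from the values of their pairs. Igf1 and Igfbp4 shared their highest cell, cell 10, and had a Pearson r of 0.63 on log2(CPM + 1), which was 0.25 without cells 3 and 10.

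The genes most like each member over the 12 cells, by rho among 9641 genes, were Ccdc126, Pdia3 and Trmt13 for Igf1 (0.91, 0.90 and 0.88), Fuom, Tpm3 and Stim1 for Igfbp3 (0.92, 0.90 and 0.88), and Mfsd11, Mgst1 and Samd5 for Igfbp4 (0.91, 0.87 and 0.83). They were Sumo3, Csf1r and Pomt2 for Igfbp6 (0.87, 0.85 and 0.78), Ereg, Necap2 and Klhl26 for Igfbp7 (0.90, 0.90 and 0.85), and Zfp825, Lekr1 and Crot for Pappa (0.93, 0.93 and 0.93). Best matches of this size are common with 12 points, since the median gene had a best rho of 0.92. Igfbp4 and Igfbp6 met the limit of 5 CPM on the mean only through cells 10 and 3, so nothing is read from their nearest genes.

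The rest of the IGF pathway was read from fixed lists, beside which 35.3% of all genes were counted in every cell. Of the other ligand genes, Igf2 had 22 counts in cell 10 and none elsewhere, and Ins1 and Ins2 had none. Of 4 receptor genes, 3 were counted in all cells. Igf2r, which takes up and degrades IGF2, was at 51.0 ± 35.9 CPM (SD, 12 cells), Igf1r at 44.0 ± 27.1 CPM and the insulin receptor gene Insr at 23.9 ± 9.43 CPM, while Insrr had no counts. Per kb of merged exons the median was 4.92 for Igf2r and 2.30 for Igf1r, both above the 0.177 of the ligand gene Igf1. By means, which follow cell 10 for Igf1, the order of Igf1 and Igf1r turned, at 2.73 and 2.62 CPM per kb. Igf1r was also counted in the 5 cells without Igf1 counts, and its lowest and highest values over the 12 cells were 13.2 (cell 3) and 104 CPM (cell 5).

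Among 11 genes of proteases and their inhibitors, 6 were counted in all cells and the other 5 in some (35.3% and 31.2% of all genes). Ctsd, a lysosomal protease, led with a median of 690 CPM. Pappa2, the close relative of Pappa, had 5 counts in cell 3 alone. The stanniocalcin gene Stc2 was counted in 8 cells at up to 18.0 CPM, and Stc1 in 3 cells. Stc1 was highest in cell 10 (28.4 CPM), ahead of cell 1 (8.98 CPM). Htra1, whose protease cuts several binding proteins, was at 49.5 ± 53.9 CPM (SD, 12 cells). Of 18 intracellular signalling genes, 15 were counted in all cells, against 35.3% of all genes. Akt1 led at a median of 311 CPM. Of the receptor substrates, Irs2 was counted in 12 cells (49.6 ± 32.3 CPM) and Irs1 in 7, at no more than 5.03 CPM. All 3 genes of the Igf2bp family, which bind messenger RNA and not the hormone, were counted in 12 cells, with Igf2bp2 highest at a median of 79.1 CPM. Genes of these lists other than the leading and uncounted ones were named for their role after the values had been seen.

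Cell 10 joined several of these values. It had the highest Igf1, Igf2, Igfbp4, Stc1 and Igf2r levels of the 12 cells and the next to highest Igfbp3 level, no Pappa counts and the third lowest Igfbp7 level. Its endothelial genes Emcn, Plvap, Pecam1 and Esam were at 3322, 2579, 1422 and 1379 CPM, and Cldn5 and Vwf were at 0. With cells 3 and 10 left out, the median fell from 2.69 to 0.824 CPM for Igfbp4 and from 1.76 to 0.797 CPM for Igf1, while that of Igfbp7 was 1657 CPM in both cases.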

How the data were processed

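Full-length messenger RNA libraries of 12 single cultured CPCs were made with the Smart-Seq v4 and Nextera XT kits. The authors mapped paired reads to mm10 with STAR 2.5.2b (also in the submitters' processing notes) and kept reads with a unique position. The deposited values are raw counts per gene and cell; the counting program, annotation and strand setting are not given in the sources used here. Columns were assigned to cells through the sample titles. Gene models were from GENCODE vM21 (98.3% of symbols matched), and start windows from RefSeq.

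CPM, exact Poisson intervals (level 0.95), levels per kb of merged exons, dispersion residuals (running median over 100 genes on either side) and rank correlations were computed; with 1 group there was no test. Genes for correlations needed a mean of 5 CPM and counts in 6 cells. The named genes were the 9 members, the leading or uncounted genes of the pathway lists and the 3 genes most like each member; other pathway and marker genes were named after their values had been seen. Members and lists were chosen with earlier results of these data known. Alternatives were TMM totals (edgeR 4.0.16), size factors (DESeq2 1.42.0), thinned counts, other lengths and thresholds, and cells left out. Dispersion and rank steps were tested on simulated data. Scripts ran in R 4.3.3 and in Python 3.11.15 with scipy 1.17.1, pandas 2.3.3, matplotlib 3.10.9 and numpy 2.4.6.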

Additional observations from a re-analysis of the deposited data

How the results depend on the processing

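Over 29 results, 82 of 91 values under other settings and 248 of 262 values with a cell left out stayed within the spread (1 SD over cells for levels and shares, 1.5 times for numbers of cells, no change for ranks, 0.30 for rho and 0.37, the SD over genes, for dispersion), and no sign turned. A limit of 10 CPM in place of 1 count left 3 cells for Igfbp3, 3 for Igfbp4, 1 for Igfbp6 and 3 for Pappa, which follows from the stricter limit. Ordering by mean put Igf1 at rank 5 and Pappa at rank 6 per length. With single cells left out, an alternative added after the data had been seen, Igfbp3 and Igfbp4 each ranked 3 to 4, and without cells 3 and 10 together Igfbp3, Pappa and Igfbp4 ranked 3, 4 and 5. With each cell left out in turn, the dispersion residual ran from 0.45 (without cell 10) to 1.26 for Igf1 and from 0.40 (without cell 11) to 1.30 for Pappa. For skewed genes the SD is far above the median, so a median within it shows little about stability. The rho of Igf1 with the G2/M sum, whose alternatives were added after the data had been seen, ran from -0.93 to -0.85 with a cell left out and was -0.83 with DESeq2 size factors. No paired analysis was possible because the result comes from no test and there is 1 group. Depth limits genes near 3 counts per cell.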

Other observations

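Genes of the CCN family, which were once grouped with the binding proteins as distant relatives, were also counted in these cells. Ctgf had a median of 674 CPM and reached 5722 CPM in cell 8, against 2538 CPM in the next cell and 2.82 CPM in the lowest. Cyr61 was at 404 ± 263 CPM (SD, 12 cells) and Wisp1 at 84.7 ± 102 CPM, both counted in 12 cells. Kazald1, another relative, was counted in 11 cells at up to 91.2 CPM. Igfals, the gene of the liver protein that carries IGF in a complex with IGFBP3, had 1 count in all, and so had Igfbpl1.

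Mmp2, a matrix metalloprotease gene, had the same form as Igfbp4. Cell 10 had 1129 CPM, or 93.9% of the summed CPM, and the next cell 34.0 CPM. Adamts1 was also highest in cell 10, at 1121 CPM, with 545 CPM in cell 3.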
